A study of Homo sapiens with 15 samples.

Results

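Expression of 10 androgen-responsive genes was followed on 15 whole-transcript Affymetrix arrays of C42B cells: C1orf116, PMEPA1, CDC42EP3, SLC45A3, ELL2, ZBTB10, NDRG1, MAK, HERC3 and EAF2. They were 10 of 17687 genes measured, each with 1 probe set, found by the gene symbol of the platform annotation. The genes were picked with earlier results of these arrays known, and the choice is taken to rest on lower levels in enzalutamide than in DMSO. Differences from the arrays of enzalutamide alone or of DMSO are therefore given as descriptions, without a test. C42B, a castration-resistant prostate cancer cell line derived from LNCaP, grows without testicular levels of androgen. Its cells received, for 6 h, 10 µM enzalutamide with 15 µM PF-543 (3 arrays), 10 µM enzalutamide with 15 µM ABC294640 (3 arrays), 10 µM enzalutamide (2 arrays), 15 µM PF-543 (3 arrays), 15 µM ABC294640 (1 array) or 0.125% DMSO as vehicle (3 arrays). All groups were grown in medium with fetal bovine serum. Whether arrays of a group came from separate cultures is not given in the labels, so the p-values rest on a spread between arrays that may be technical.

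Androgen acts through a nuclear receptor that, once bound by the hormone, enters the nucleus, binds response elements in enhancers and promoters, and recruits coactivators. Enzalutamide blocks hormone binding and the steps that follow, and transcripts made under direct hormone control can then fall within hours as existing RNA decays. PF-543 inhibits sphingosine kinase 1 and ABC294640 (opaganib) sphingosine kinase 2, enzymes that make sphingosine 1-phosphate. Only 1 time point was measured, so the speed of a fall was not tested. In bulk RNA, fewer cells with a transcript and less transcript per cell cannot be told apart.

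All values are log2 expression after RMA, so a difference of 1 is a 2-fold change, and no detection calls were used. Array medians lay between 6.71 and 6.76. Of 8 measured markers of prostate luminal cells, 7 were above the 75th percentile of signal on all arrays, and the other, TMPRSS2, lay between 8.84 and 10.4. All 9 measured markers of basal, neuroendocrine, stromal and immune cells were below the median on all arrays. The DMSO arrays stood apart over all genes, at 18.9 to 24.8 on the first principal component, against -11.6 to 0.03 for the 12 arrays of drug-treated cells. The tests of enzalutamide below take their differences from other arrays, and the difference from DMSO is given beside them.

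Promoters were looked at because all 10 genes had lower mean levels with enzalutamide, although not all of them passed a test. RefSeq windows (GRCh38.p14) were matched by symbol for 7 of the 10 genes, giving 13 start sites with 250 bases before each. The windows of C1orf116, the gene with the largest fall, of SLC45A3, a prostate-restricted gene with the same pattern, and of EAF2, whose arrays with and without enzalutamide overlapped, are shown up to the base before the start. They lie at chr1:207032757-207033006 (minus strand), chr1:205680510-205680759 (minus strand) and chr3:121834959-121835208 (plus strand). Capitals mark the GC box GGGCGG, a motif bound by Sp-family factors, on either strand.
C1orf116: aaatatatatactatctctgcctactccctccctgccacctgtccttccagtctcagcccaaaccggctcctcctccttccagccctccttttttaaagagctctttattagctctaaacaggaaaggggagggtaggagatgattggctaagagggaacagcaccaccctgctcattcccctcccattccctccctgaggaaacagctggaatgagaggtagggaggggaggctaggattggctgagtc
SLC45A3: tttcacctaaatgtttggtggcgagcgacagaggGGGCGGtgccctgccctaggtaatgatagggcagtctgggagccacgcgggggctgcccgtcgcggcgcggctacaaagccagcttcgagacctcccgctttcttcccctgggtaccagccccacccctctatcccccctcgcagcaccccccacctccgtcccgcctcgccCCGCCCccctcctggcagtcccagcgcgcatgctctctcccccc
EAF2: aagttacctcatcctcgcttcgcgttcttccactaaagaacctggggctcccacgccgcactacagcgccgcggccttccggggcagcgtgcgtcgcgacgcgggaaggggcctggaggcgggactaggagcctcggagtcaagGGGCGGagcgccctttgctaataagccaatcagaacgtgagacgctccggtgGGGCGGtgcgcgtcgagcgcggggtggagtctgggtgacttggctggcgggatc

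The androgen response element half-site AGAACA, on either strand, was found in 1 of the 13 windows and in 12.4% of all 35116 windows of the table. The match was in 1 of the windows of PMEPA1, at -229 to -224 from the start. It is shown in capitals in a stretch of 30 bases at chr20:57710789-57710818 (minus strand).
PMEPA1: acctgaagaatgTGTTCTtgtagcactcct

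The full palindromic androgen response element, which contains the half-site on each strand, was found in 0 of the 13 windows, and in 0.00285% of all windows. The forkhead motif GTAAACA, on either strand, was found in 0 of 13, and in 2.98% of all. GC boxes were in 8 of 13 windows, against 42.6% of all windows. By gene they were in 6 of 7, for which no share of all genes was counted. The C1orf116 window held none of these motifs, and its GC content was 52.4%, against 69.2% for SLC45A3 and 66.8% for EAF2. These counts cover only the letters of these windows and say nothing of enhancers.

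Across all 6 groups, 9 of the 10 genes separated the 8 arrays with enzalutamide from the 7 without, with every array with enzalutamide lower. Of all genes, 0.475% showed that pattern. This split includes the arrays that chose the genes and carries no test. EAF2 was the exception, with 2 of 8 enzalutamide arrays at or above the lowest array without the drug. The gap between the highest array with and the lowest array without enzalutamide ranged from 1.80 for C1orf116 to 0.03 for HERC3.

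**Figure D1:**
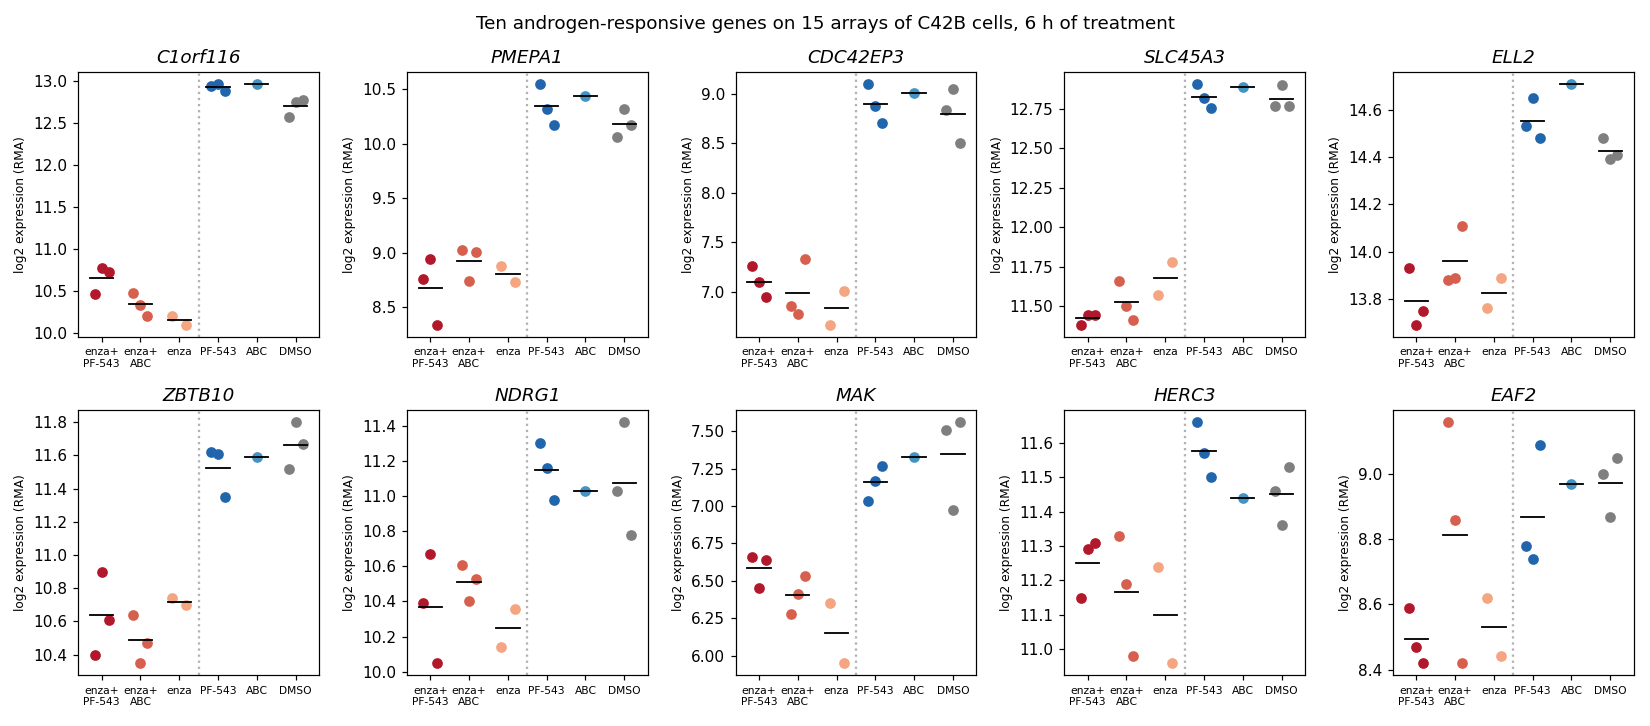
Log2 expression (RMA, vertical axes, not starting at 0 and scaled per gene) of the 10 genes on each array, by group. Points are arrays, horizontal bars are group means, and the dotted line separates groups with enzalutamide (enza, left) from those without (right; ABC is ABC294640). For every gene but EAF2 the points left of the line lie below those right of it.

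The test of the enzalutamide effect compared enzalutamide with PF-543 against PF-543 alone. The difference uses none of the enzalutamide-only or DMSO arrays, but the spread behind each p was estimated over all 15 arrays. Of the 10 genes, 6 were lower past the threshold (limma, adjusted p under 0.05 over all 17687 genes), where 0.232% of all genes were. They were C1orf116, CDC42EP3, PMEPA1, SLC45A3, ZBTB10 and ELL2. NDRG1, MAK, EAF2 and HERC3 did not pass, although all 10 genes had an unadjusted p under 0.05, as did 1462 of all genes. The arrays did not overlap in any of the 10 genes, a pattern that 6.99% of all genes showed with lower values. The median difference of the 10 genes was log2 -0.83, against 0.01 for all genes. With ABC294640 in place of PF-543, 4 of the 10 genes passed as lower (C1orf116, CDC42EP3, SLC45A3 and PMEPA1), where 0.0735% of all genes did, and the median was log2 -1.01, against 0.01 for all genes. There 9 of the 10 genes lay lower without overlap, and so did 24.2% of all genes. That comparison rests on 1 array without enzalutamide, which was assumed to vary like the others. When only the arrays compared were fitted, C1orf116, CDC42EP3, PMEPA1 and SLC45A3 passed on top of PF-543 (4 of the 10, and 17 of all genes), and 0 of the 10 and 0 genes passed on top of ABC294640. Results of these arrays too were known when the genes were picked, so the counts are not independent support for the choice.

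C1orf116 (SARG, the specifically androgen-regulated gene) had the largest fall of the 10. It measured 10.47, 10.78 and 10.73 in enzalutamide with PF-543, 10.48, 10.34 and 10.21 in enzalutamide with ABC294640, and 10.21 and 10.10 in enzalutamide alone. It measured 12.94, 12.97 and 12.89 in PF-543, 12.97 in ABC294640, and 12.58, 12.76 and 12.78 in DMSO. No array of one set came within 1.80 log2 units of the other. On top of PF-543 the difference was log2 -2.27 (SE 0.11, limma adjusted p = 3.78e-07), which left 20.7% of the level in PF-543. On top of ABC294640 it was log2 -2.63 (SE 0.15, limma adjusted p = 4.66e-06), with 16.2% left. The second call was lost when only the arrays compared were fitted (limma adjusted p = 0.088). Among all genes it ranked second and first from the lowest difference in these comparisons. The difference that chose it, enzalutamide against DMSO, was log2 -2.55.

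SLC45A3 (prostein) encodes a prostate-restricted membrane protein of the solute carrier family. It measured 11.38, 11.44 and 11.44 in enzalutamide with PF-543, 11.66, 11.50 and 11.41 in enzalutamide with ABC294640, and 11.57 and 11.78 in enzalutamide alone. It measured 12.91, 12.82 and 12.76 in PF-543, 12.89 in ABC294640, and 12.77, 12.90 and 12.77 in DMSO. The 7 arrays without enzalutamide lay close together, between 12.76 and 12.91, and the nearest array with the drug was 0.98 log2 units lower. The difference was log2 -1.41 on top of PF-543 (SE 0.09, limma adjusted p = 1.06e-05) and log2 -1.37 on top of ABC294640 (SE 0.13, limma adjusted p = 0.000937). The second call was lost in the fit of only those arrays (limma adjusted p = 0.507). About the same share of the level remained in both, 37.6% and 38.8%. Against DMSO, enzalutamide alone was at log2 -1.14.

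Among genes of signalling and cell shape, PMEPA1, a membrane protein that restrains TGF-beta signalling by binding SMADs, measured 8.76, 8.94 and 8.34 in enzalutamide with PF-543, 9.03, 8.74 and 9.01 in enzalutamide with ABC294640, and 8.88 and 8.73 in enzalutamide alone. It measured 10.55, 10.32 and 10.17 in PF-543, 10.44 in ABC294640, and 10.06, 10.32 and 10.17 in DMSO. The sets were 1.03 log2 units apart at their nearest arrays. The fall was log2 -1.67 on top of PF-543 (SE 0.15, limma adjusted p = 0.000182) and log2 -1.51 on top of ABC294640 (SE 0.22, limma adjusted p = 0.0208). The call on top of ABC294640 was lost without any 1 of the 3 combination arrays and in the fit of only the arrays compared (limma adjusted p up to 0.507), while the difference stayed between log2 -1.57 and -1.42 over all alternatives. Enzalutamide against DMSO was at log2 -1.38.

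CDC42EP3, an effector of the GTPase Cdc42 that acts on actin and septin filaments, measured 7.26, 7.10 and 6.95 in enzalutamide with PF-543, 6.86, 6.78 and 7.33 in enzalutamide with ABC294640, and 6.67 and 7.01 in enzalutamide alone. It measured 9.10, 8.88 and 8.71 in PF-543, 9.01 in ABC294640, and 8.84, 9.05 and 8.50 in DMSO. Every array with enzalutamide was at least 1.17 log2 units below every array without it. The fall was log2 -1.79 on top of PF-543 (SE 0.18, limma adjusted p = 0.00032) and log2 -2.02 on top of ABC294640 (SE 0.25, limma adjusted p = 0.00678). With only the arrays compared in the fit, the second of these calls was lost (limma adjusted p = 0.507). Enzalutamide against DMSO was at log2 -1.96.

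MAK, a protein kinase first described in male germ cells and later as an androgen-induced gene, was the dimmest of the 10. It measured 6.66, 6.45 and 6.64 in enzalutamide with PF-543, 6.28, 6.41 and 6.53 in enzalutamide with ABC294640, and 6.35 and 5.95 in enzalutamide alone. It measured 7.03, 7.17 and 7.27 in PF-543, 7.33 in ABC294640, and 7.51, 6.97 and 7.56 in DMSO. The sets were 0.31 log2 units apart, and all 8 arrays with enzalutamide lay below the lowest array median of 6.71. The difference from enzalutamide was log2 -0.57 on top of PF-543 (95% interval -0.91 to -0.23, limma adjusted p = 0.236) and log2 -0.92 on top of ABC294640 (-1.40 to -0.44, adjusted p = 0.329). Neither passed. The difference that chose it, enzalutamide against DMSO, was larger, at log2 -1.20.

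The genes of transcription control were ELL2, EAF2 and ZBTB10. ELL2 is an elongation factor of the super elongation complex, and EAF2 is a protein that binds and stimulates ELL factors. ELL2 measured 13.93, 13.69 and 13.75 in enzalutamide with PF-543, 13.88, 13.89 and 14.11 in enzalutamide with ABC294640, and 13.76 and 13.89 in enzalutamide alone. It measured 14.53, 14.65 and 14.48 in PF-543, 14.71 in ABC294640, and 14.48, 14.39 and 14.41 in DMSO. The sets were 0.28 log2 units apart. The fall was log2 -0.76 on top of PF-543 (SE 0.10, limma adjusted p = 0.00354), which left 58.9% of the level. That call was lost when only the arrays compared were fitted (limma adjusted p = 0.0942). On top of ABC294640 a difference of nearly the same size, log2 -0.75 (SE 0.14), did not pass (limma adjusted p = 0.114). Enzalutamide against DMSO was at log2 -0.60.

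EAF2 had smaller differences than ELL2, and no test compared these genes with each other. EAF2 measured 8.59, 8.47 and 8.42 in enzalutamide with PF-543, 9.16, 8.86 and 8.42 in enzalutamide with ABC294640, and 8.62 and 8.44 in enzalutamide alone. It measured 8.78, 8.74 and 9.09 in PF-543, 8.97 in ABC294640, and 9.00, 8.87 and 9.05 in DMSO. The arrays with enzalutamide and ABC294640 spanned 8.42 to 9.16 and covered the whole range of the arrays without enzalutamide. The difference was log2 -0.38 on top of PF-543 (95% interval -0.72 to -0.03, limma adjusted p = 0.557) and log2 -0.16 on top of ABC294640 (-0.65 to 0.33, adjusted p = 0.98). Enzalutamide against DMSO was at log2 -0.44, and the combination with ABC294640 against DMSO at log2 -0.16, or 0.04 without replicate 3 of the combination.

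ZBTB10, a zinc finger and BTB domain transcription factor, lay between 10.35 and 10.90 on the 8 arrays with enzalutamide (median 10.63), against 11.35 to 11.80 on the 7 arrays without (median 11.61). The sets did not overlap. The fall was log2 -0.89 on top of PF-543 (SE 0.13, limma adjusted p = 0.0133). That call was lost without enzalutamide with PF-543 replicate 1 or 3, or without PF-543 replicate 1 or 2, and in the fit of only the arrays compared, with log2 -1.02 to -0.77 over all alternatives and adjusted p up to 0.181. On top of ABC294640 the difference was log2 -1.10 (SE 0.19, limma adjusted p = 0.0683). Enzalutamide against DMSO was at log2 -0.94.

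NDRG1, a stress- and hypoxia-induced protein tied to differentiation, lay between 10.05 and 10.67 with enzalutamide (median 10.40) and between 10.78 and 11.42 without (median 11.03). The sets were 0.11 log2 units apart. The difference was log2 -0.78 on top of PF-543 (95% interval -1.16 to -0.40, limma adjusted p = 0.126) and log2 -0.52 on top of ABC294640 (-1.05 to 0.02, adjusted p = 0.737). HERC3, an E3 ubiquitin ligase of the HECT class, lay between 10.96 and 11.33 with enzalutamide (median 11.22) and between 11.36 and 11.66 without (median 11.50). Its difference was log2 -0.33 on top of PF-543 (95% interval -0.57 to -0.09, limma adjusted p = 0.416) and log2 -0.27 on top of ABC294640 (-0.61 to 0.07, adjusted p = 0.818). HERC3 and EAF2 had the smallest differences from DMSO as well, at log2 -0.35 and -0.44, while NDRG1 was at -0.83.

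**Figure D2:**
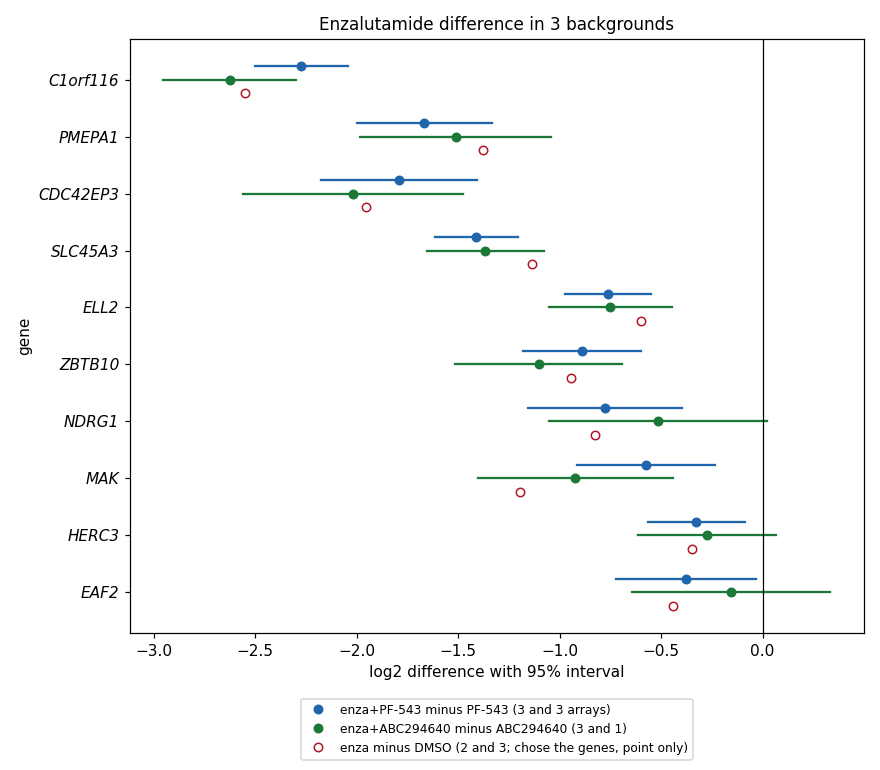
Log2 difference made by enzalutamide (horizontal axis) for each of the 10 genes in 3 backgrounds. Filled points with lines are limma estimates with 95% intervals on top of PF-543 and of the single ABC294640 array, and open points are enzalutamide against DMSO, which chose the genes. All points lie below 0, from log2 -2.63 for C1orf116 to -0.16 for EAF2.

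Against DMSO, C1orf116 and CDC42EP3 were also the lowest of the 10 in both combinations. Enzalutamide with PF-543 was at log2 -2.05 for C1orf116, -1.69 for CDC42EP3, -1.50 for PMEPA1 and -1.39 for SLC45A3. Enzalutamide with ABC294640 was at log2 -2.36, -1.81, -1.26 and -1.29 for the same genes. These differences share the DMSO arrays with the choice of the genes, so they are given without a test. HERC3 was at log2 -0.20 with PF-543 and -0.28 with ABC294640.

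Whether the fall differed between the PF-543 and ABC294640 backgrounds was tested as an interaction, again without the arrays that chose the genes. None of the 10 genes passed (limma, smallest adjusted p = 0.828, with 0 at an unadjusted p under 0.05). Of all genes, 0% passed, and 1115 had an unadjusted p under 0.05. The differences lay between log2 -0.26 for NDRG1 and 0.35 for C1orf116, and the 95% intervals ran from -0.92 to 0.94 over the 10 genes. The lowest bound was that of NDRG1 and the highest that of MAK, and other genes had narrower intervals. With 1 ABC294640 array, a difference within the interval of its own gene could not be told from 0.

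Each combination was also set beside enzalutamide alone. The enzalutamide arrays chose the genes for low values, which favours higher values in the combinations, so no test is given. With PF-543 added, C1orf116 was at log2 0.51 and MAK at log2 0.43. SLC45A3 was on the other side, at log2 -0.26. The remaining 7 genes lay between log2 -0.13 and 0.26. With ABC294640 added, the 10 genes lay between log2 -0.23 for ZBTB10 and 0.28 for EAF2.

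Whether the inhibitors differed in cells given enzalutamide was tested between the combinations, a difference that uses no enzalutamide-only or DMSO array. With PF-543 in place of ABC294640 none of the 10 passed (limma, smallest adjusted p = 0.527), where 0.0961% of all genes did. C1orf116, at log2 0.32 (95% interval 0.09 to 0.55, adjusted p = 0.527), was the 1 gene of the 10 with an unadjusted p under 0.05. Of all genes, 1275 had one. EAF2, at log2 -0.32 (-0.67 to 0.03, adjusted p = 0.713), had the largest difference the other way. In all 10 genes the arrays of the combinations overlapped, while 12.4% of all genes were without overlap in either direction.

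**Figure D3:**
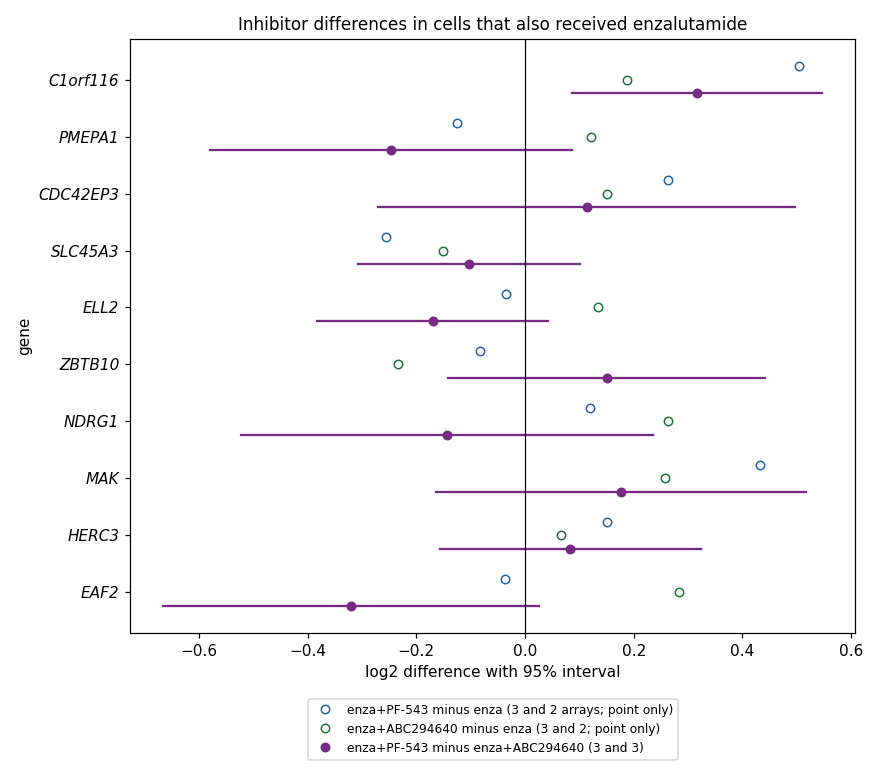
Log2 difference (horizontal axis) of each combination from enzalutamide alone, and of the PF-543 combination from the ABC294640 combination, for the 10 genes. Filled points with lines are limma estimates with 95% intervals, and open points are differences from the enzalutamide arrays that chose the genes, given without an interval. The line of C1orf116 lies above 0 and the other 9 cross it, and the farthest open point is C1orf116 with PF-543 added, at log2 0.51.

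Without enzalutamide, each inhibitor was set beside DMSO. The DMSO arrays chose the genes for high values, so no test is given here either. For PF-543 the differences lay between log2 -0.19 for MAK and 0.23 for C1orf116. For the single ABC294640 array they lay between log2 -0.07 for ZBTB10 and 0.28 for ELL2. In the order of group means, the 3 groups without enzalutamide stood above the 3 groups with it for all 10 genes. That order includes the arrays that chose the genes, and how many of all genes had it was not counted. Next to each other in that order, groups mostly overlapped within each of those sets of 3. The exceptions were C1orf116, where PF-543 lay apart from DMSO, and ELL2 and MAK, where the single ABC294640 array lay apart from PF-543. How many of all genes had such gaps was not counted.

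The 10 genes were set beside other lists, chosen with earlier results of these arrays known, in enzalutamide with PF-543 against PF-543. Of 62 other androgen-responsive genes, 8 were lower, 0 higher and 54 did not pass, with a median of log2 -0.20, against 0.01 for all genes. Without KLF5, SNAI2 and ZBTB16, which were put on the list for their known falls here, 5 of 59 were lower and the median was log2 -0.19. The largest of the 8 falls were in transcription factors. They were SNAI2 (log2 -2.45, limma adjusted p = 0.00264), ZBTB16 (-2.16, adjusted p = 2.2e-05), KLF5 (-1.85, adjusted p = 0.000182) and MAF (-1.68, adjusted p = 0.00161). SNAI2 was dim with enzalutamide. It averaged 5.05 in enzalutamide with PF-543, below the lowest array median of 6.71, and 7.51 in PF-543. On top of ABC294640, 4 of the 62 were lower and 0 higher, with a median of log2 -0.22. Without the 3 added genes, 2 of 59 were lower, with a median of log2 -0.17.

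Relatives of the 10 genes by sequence or name did not pass in this comparison (limma, 0 of 20 measured, smallest adjusted p = 0.349, 2 at an unadjusted p under 0.05). Of all 17687 genes, 1462 had an unadjusted p under 0.05. The relatives lay between log2 -0.42 for CDC42EP2 and 0.30 for LDLRAD4, a relative of PMEPA1. Of the CDC42 effector family, CDC42EP1 was at log2 0.29 and CDC42EP4 at 0.15, beside -1.79 for CDC42EP3. NDRG3 was at log2 0.02, and SLC45A1, SLC45A2 and SLC45A4 at 0.12 to 0.14. The SLC45A relatives were dim (group means of 3.72 to 4.95), and so was LDLRAD4 (4.92 with enzalutamide and 4.62 without). CDC42EP4, at 6.22 and 6.06 in the same groups, also lay below the lowest array median of 6.71. ELL and ELL3, relatives of ELL2, were at log2 0.13 and 0.20, and EAF1, the relative of EAF2, at -0.16. Of 12 elongation complex genes, which include ELL, ELL3 and EAF1, 0 passed and 1 had an unadjusted p under 0.05, with a median of log2 -0.04.

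Of 13 TGF-beta and SMAD genes, chosen because PMEPA1 acts on that pathway, 1 was higher and 0 lower, where 0.0792% of all genes were higher. It was BAMBI, a decoy receptor of the pathway (log2 0.55, SE 0.10, limma adjusted p = 0.0352, or 0.214 with only the arrays compared in the fit), and the list median was log2 -0.14. Of 14 hypoxia and stress genes, chosen because NDRG1 responds to both, 1 was higher and 0 lower. It was DDIT4, an inhibitor of mTORC1 signalling (log2 1.27, SE 0.13, limma adjusted p = 0.000363), and the list median was log2 0.05. Of 9 measured pioneer factors and coregulators of the androgen response, 0 passed, with a median of log2 -0.15. Among them 4 had an unadjusted p under 0.05, as did 1462 of all 17687 genes.

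**Figure D4:**
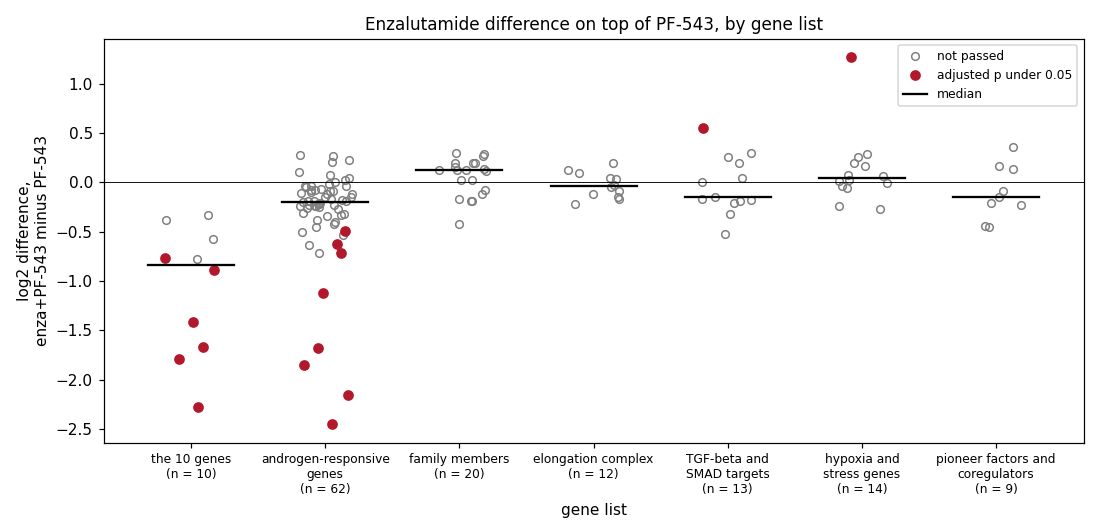
Log2 difference of enzalutamide with PF-543 from PF-543 alone (vertical axis) for the 10 genes and 6 other lists (horizontal axis; spread within a list is for legibility). Each point is a gene, filled where limma's adjusted p over all genes was under 0.05, and the bar is the list median, which is log2 -0.83 for the 10 genes and -0.20 for the other androgen-responsive genes.

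How alike the 10 genes were was described by Pearson's r over the 15 arrays between each gene and the mean of the other 9, each centred on its own mean. It was 0.98 for C1orf116, PMEPA1 and SLC45A3, 0.97 for CDC42EP3, 0.95 for ZBTB10, 0.94 for ELL2, 0.89 for NDRG1, 0.87 for MAK, 0.82 for HERC3 and 0.59 for EAF2. Of the 5 genes outside the set with the highest r to the mean of all 10, over the same 15 arrays, 4 are given: ZBTB16 (r = 0.99), ENDOD1 (0.96), the F-box gene FBXO38 (0.96) and NFKBIA, which holds NF-kB in the cytoplasm (0.96). All points share the array and its normalization, and the arrays fall into those with and without enzalutamide. How much of each r comes from that split was not tested. The genes were taken to be chosen for lower levels in enzalutamide than in DMSO. Those arrays are among the 15, so a high r among the 10 genes was favoured by the choice. ZBTB16 averaged 7.33 in enzalutamide with PF-543, 7.45 in enzalutamide with ABC294640 and 7.09 in enzalutamide, against 9.48 in PF-543, 9.58 in ABC294640 and 9.40 in DMSO. NFKBIA differed by log2 -0.85 on top of PF-543 (SE 0.11, limma adjusted p = 0.0045, or 0.148 with only the arrays compared in the fit).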

How the data were processed

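The authors deposited a log2 value for each probe set, made with RMA and Transcriptome Analysis Console 4.02, per the submitters' processing notes, and rounded to 2 decimals. RMA corrects background, brings the arrays to one distribution and summarises probes, which removes any shift common to the majority of genes. Of 21448 probe sets, 17709 had 1 gene symbol, 0 had several and 3739 were unnamed. The brightest probe set was kept for the 20 genes with several, which left 17687 genes. Groups came from the array labels. Some genes of the lists are not analysed here.

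Differences were tested with limma (version 3.58.1, run under R 4.3.3) in a fit of group means to all 15 arrays (9 residual and 3.82 prior degrees of freedom), eBayes, and Benjamini-Hochberg adjustment over all genes at 0.05. Genes named were the 10, the 5 others most correlated with them (1 of which is not reported here), their relatives, and up to 4 genes of each list past the threshold. Differences of the 10 genes from enzalutamide alone or DMSO are given without a test, although a test of the inhibitors' differences was planned. The genes, lists and tests were chosen with earlier results of these data known. The test was checked on simulated data with 200 of 17687 genes changed: on top of PF-543 it recovered 26% of falls of log2 0.5 and 79% of falls of log2 1. On top of ABC294640 it recovered 4% and 48%. The number of arrays limits the precision. Alternatives were other normalizations, a filter on dim genes, all probe sets, other priors, array weights, only the arrays of the comparison in the fit, a replicate block and leaving out each array. Arrays with the same replicate number did not deviate together (r of -0.04 to 0.07 over 26 pairs), and 0 pairs of arrays were identical. Figures used matplotlib 3.10.9.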

Additional observations from a re-analysis of the deposited data

Results flagged for a closer look

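In 4 cases, over the 10 genes and both inhibitors, the effect of the inhibitor changed side with enzalutamide. With enzalutamide, every array with the inhibitor lay on one side of the mean without it, and without enzalutamide on the other. How many of all genes did so was not counted. The difference between these effects was not tested. MAK with PF-543 was at log2 0.43 with enzalutamide and -0.19 without, a difference of 0.62. The other 3 rest on the single ABC294640 array. NDRG1 was at log2 0.26 with enzalutamide and -0.05 without, a difference of 0.31. MAK was at log2 0.26 with enzalutamide and -0.02 without, a difference of 0.27. SLC45A3 was at log2 -0.15 with enzalutamide and 0.08 without, a difference of -0.23. The arrays of enzalutamide alone and of DMSO, which chose the genes, enter all 4. A choice for low values in enzalutamide and high values in DMSO favours the sides seen for MAK and NDRG1. SLC45A3 was on the opposite sides.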

How the results depend on the processing

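Counts of genes past the threshold moved between settings, and the cause was not tested. Fits of only the arrays compared, or with an array left out, also held fewer arrays. For enzalutamide added to PF-543, 55 genes and 6 of the 10 passed. A robust and trended prior gave 147 genes, fitting only the arrays compared gave 17 (4 of the 10), and leaving out each array gave 24 to 55. C1orf116, CDC42EP3, PMEPA1 and SLC45A3 passed in 24 of 24 alternatives, ELL2 in 23 and ZBTB10 in 19, and NDRG1 passed with the robust prior alone. For enzalutamide added to ABC294640, 14 genes and 4 of the 10 passed. The robust prior gave 38 genes, the arrays compared gave 0 genes and 0 of the 10, and leaving out each array gave 8 to 16 genes and 3 to 5 of the 10. For PF-543 added to enzalutamide, 5 genes passed. The robust prior gave 47, and the arrays compared gave 0. With the dimmest 25% of genes left out, with all probe sets or with array weights, 8 passed each. Leaving out each array gave 0 to 6. Calls of the 10 genes are not given for this comparison, since the enzalutamide arrays chose them. For PF-543 against ABC294640 with enzalutamide, 17 genes passed, with 28 (robust prior), 4 (arrays compared) and 3 to 17 (leaving out each array). For PF-543 against DMSO, 100 passed, with 547 (robust prior), 177 (dimmest genes left out), 9 (arrays compared) and 25 to 100 (leaving out each array). Where 0 genes passed, the robust prior gave 8 for ABC294640 against DMSO, with 0 to 1 when leaving out each array, 1 for ABC294640 added to enzalutamide and 1 for the interaction. EAF2 in enzalutamide with ABC294640 against DMSO, at log2 -0.16, turned to 0.0367 without replicate 3 and lay at -0.33 without replicate 1. Arrays with the same replicate number did not deviate together, and whether they were handled together is not given in the labels. With a replicate block, 40 genes passed for enzalutamide added to PF-543 (6 of the 10), 3 for PF-543 added to enzalutamide, 4 for PF-543 against ABC294640 with enzalutamide and 46 for PF-543 against DMSO. No block could be fitted with the ABC294640 array, which has no number.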
